A study of Saccharomyces cerevisiae with 11 samples.

Results

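Transcript levels of Saccharomyces cerevisiae that lacks RIM15 were compared between day 2 of retentostat culture and the chemostat, to describe the first response when growth begins to slow. The comparison covers 5 of the 11 Affymetrix arrays of the series, chosen by their labels: 2 arrays of retentostat day 2 and 3 arrays of the chemostat. Of 9335 probe sets on the array, the 6504 annotated to exactly 1 gene were used. They represent 5656 genes, of which 155 lay at or under a signal of 12 on each of the 5 arrays and were left out, so that 5501 genes were tested. All cultures carried strain IMK313, in which RIM15 is deleted in the prototrophic laboratory background CEN.PK113-7D. Every culture was anaerobic and glucose-limited, at pH 5.0 and 30 °C, on medium with 50 g of glucose per litre and at a dilution rate of 0.025 per h. The 2 day 2 samples came from 2 retentostat cultures, called culture 1 and culture 2, each started from a chemostat by leading the outflow through a filter. The 3 chemostat samples came from 3 separate cultures with culture codes of their own. No wild-type array was used here, so the values describe a single deletion strain in 2 culture states and not the effect of the deletion.

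In a chemostat, cells leave with the outflow and the remaining cells divide at the dilution rate. In a retentostat the filter holds the cells back while glucose is still fed at the same rate, so the sugar available to each cell declines and division slows without a full stop of the supply. Rim15 is a protein kinase that is held in check by nutrient signalling through TORC1, protein kinase A and Pho85, and that promotes the expression of stress and resting-state genes through Msn2, Msn4 and Gis1 when nutrients run short. Yeast that slows down typically stores glycogen and trehalose, derepresses genes of gluconeogenesis and respiration, and lowers transcripts for ribosomes and biosynthesis.

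The deposited signals are in linear units that had been scaled to a common trimmed mean, which was 300.2 on both day 2 arrays and 300.3 on the chemostat arrays. The median signal of a probe set was 93.6 and 98.5 on the day 2 arrays, against 85.3 to 92.9 on the chemostat arrays. Log2 signals of the genes correlated at 0.955 between the day 2 arrays and at 0.973 to 0.982 between the chemostat arrays. The control probe sets of ACT1 (actin), which compare the 3' with the 5' end of the transcript, gave a 3'/5' ratio of 1.49 and 1.94 on the day 2 arrays, against 0.966, 1.31 and 1.21 on the chemostat arrays. The day 2 ratios were thus above each chemostat ratio, while the ratios of SPT15 and SRB4 overlapped between the groups. The part of the ACT1 difference in the results below was not tested. The RIM15 probe set gave 5.4 and 1.6 on the day 2 arrays and 10.7, 3.8 and 3.0 on the chemostat arrays, all under the floor of 12. Where it lies in RIM15 is unstated, so whether these signals check the deletion cannot be said.

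The background strain is of mating type a, and the markers of a cells were present: MFA1, which encodes the precursor of a-factor, gave 9285 and 7811 on day 2 and 6572 to 7782 in the chemostat. The summed signal of 7 a-cell markers was 21683 and 18795 on day 2, against 15262 to 17761 in the chemostat. The 4 alpha-cell markers summed to 559 and 576 on day 2, against 387 to 426 in the chemostat. MF(ALPHA)2, a gene for the alpha-factor precursor, was at or under the floor on 1 of 2 day 2 arrays and on 2 of 3 chemostat arrays. The 8 markers of sporulating diploids summed to 343 and 404 on day 2, against 284 to 336 in the chemostat, and the spore-wall gene DIT2 was under the floor on all 5 arrays. All 3 sums were higher on both day 2 arrays than on each chemostat array, and their part in the results was not tested. In such bulk samples, more cells of a type and more transcript per cell cannot be told apart.

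Some signals separated the culture types completely, although the labels give all arrays the same strain. Probe set 3982_at, which is annotated to no gene, gave 7604 and 6306 on the day 2 arrays and 0.5, 0.6 and 0.5 on the chemostat arrays. In the opposite direction, probe set 3897_s_at, shared by YHL009W-B and YJL113W, gave 1.0 and 0.9 on day 2 and 72.2, 54.0 and 68.5 in the chemostat. Among genes, HAC1, the transcription factor of the unfolded protein response, had a probe set (5399_at) with 45.1 and 46.6 on day 2 and 2.1, 1.1 and 0.9 in the chemostat, whereas its other 4 probe sets overlapped between the groups. A difference between the cells used for the 2 culture types and an effect of the retentostat cannot be told apart in these arrays, and this holds for every result below.

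By limma's moderated test on log2 signals (floor 12, 5 arrays, Benjamini-Hochberg adjustment over 5501 genes, two-sided), 19 genes differed between retentostat day 2 and the chemostat at an adjusted p under 0.05. Of these, 15 rose (0.273% of the genes tested) and 4 fell (0.0727%). Their adjusted p-values lay just under the threshold, between 0.04739 and 0.04805. Without the adjustment, 677 genes (12.3%) were higher and 226 (4.11%) lower at p under 0.05. Both day 2 arrays lay above all chemostat arrays for 1331 genes (24.2%) and below them for 583 genes (10.6%). At least 2-fold, with no overlap and a mean signal of 50 or more in the higher group, were 104 genes (1.89%) above and 52 genes (0.945%) below. The median log2 difference of all genes was 0.11 under the deposited scaling and 0.02 under quantile scaling, so the levels of gene groups are read against this median. No gene passed after leaving out each of the 3 chemostat arrays in turn, or under quantile or median scaling. None passed with a floor of 30, without the filter on low signals, or in a fit over all 11 arrays. The 19 genes kept their direction in each of these and after leaving out a day 2 array. Where arrays were left out this was fixed in advance, because their signals did not overlap between the groups. The fits over all 11 arrays and without the filter return the same differences, so direction could not change there either. No single-gene exact test of 2 against 3 arrays can go below p = 0.1.

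**Figure D1:**
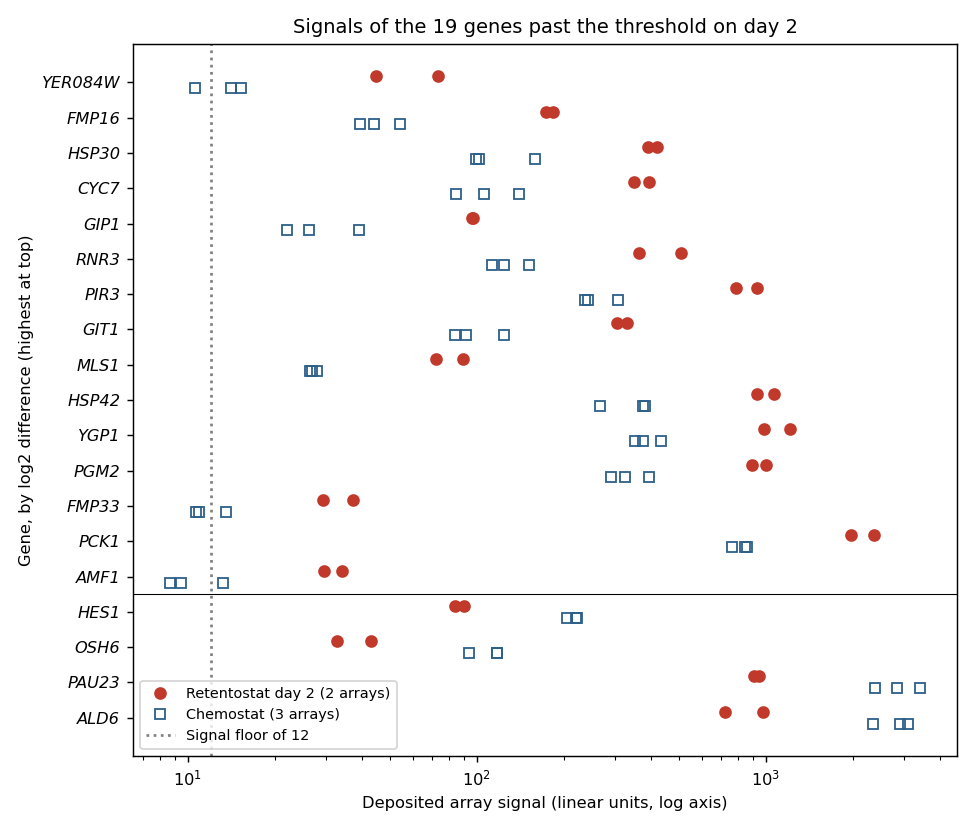
Deposited signal (linear units on a log axis) of the 19 genes that passed the adjusted threshold, 1 row per gene ordered by log2 difference; red circles are the 2 retentostat day 2 arrays, open blue squares the 3 chemostat arrays, and the dotted line is the signal floor of 12. In each row the circles and squares do not overlap, and 2 of the 3 chemostat squares of FMP33 and AMF1 lie under the floor.

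**Figure D2:**
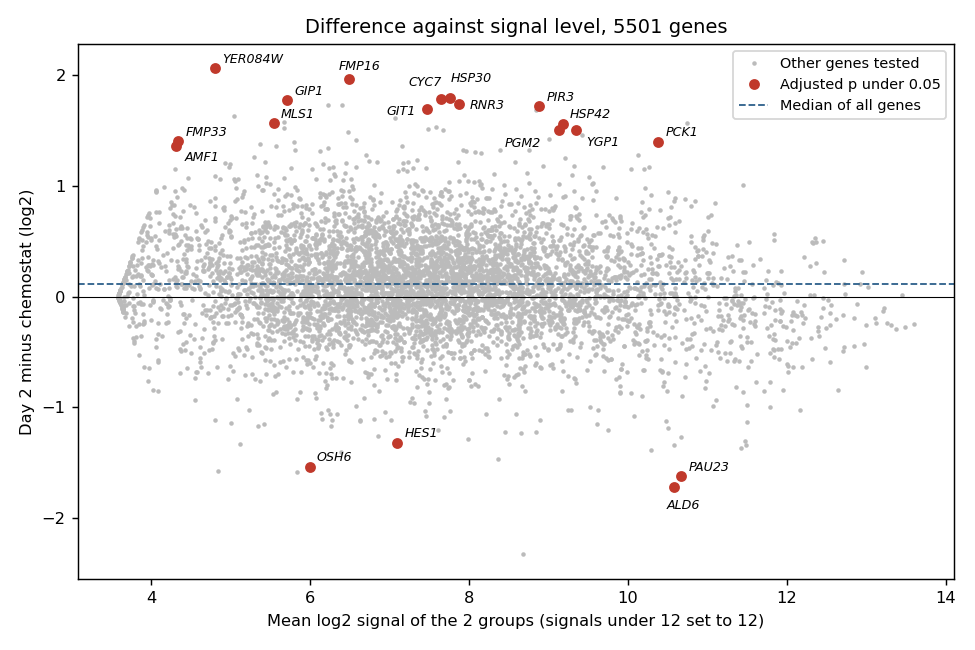
Log2 difference of each of 5501 genes, day 2 minus chemostat, against the mean log2 signal of the 2 groups; grey points are genes that did not pass, red points are the 19 genes that did, and the dashed line is the median of all genes at 0.11. The genes past the threshold lie at low, middle and high signals, and the lowest point, RPL7B at -2.33, is not among them.

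Several stress and resting-state genes were among the 15 that rose. FMP16, a protein found in mitochondria with a proposed part in stress responses, gave signals of 183.1 and 172.8 on day 2, against 54.2, 44.1 and 39.5 in the chemostat. It rose 3.91-fold (log2 difference 1.97 ± 0.22, SE, n = 2 and 3 arrays). HSP30, a plasma-membrane protein that restrains the proton pump under stress, had 390.2 and 419.8 on day 2, against 101.3, 159.0 and 99.0 in the chemostat. The rise was 3.46-fold (1.79 ± 0.26), and the lowest day 2 signal was well above the highest of the chemostat. HSP42, a small heat-shock protein that gathers misfolded proteins into deposits, had 1063.8 and 933.5 on day 2 and 382.5, 377.0 and 267.6 in the chemostat (2.95-fold, 1.56 ± 0.24). YGP1, a secreted glycoprotein induced by nutrient limitation, rose 2.83-fold (1.50 ± 0.22), with 1210.5 and 983.8 on day 2 against 374.3, 434.7 and 351.4 in the chemostat. The signals of both groups lay far apart relative to their spread. FMP33, another mitochondrial protein of unknown function, was weak: 37.2 and 29.3 on day 2, against 13.5, 10.9 and 10.7 in the chemostat, where 2 arrays lay under the floor. Its log2 difference of 1.40 shrank to 0.16 with a floor of 30.

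Of the 39 measured genes of an Msn2/4-type stress list, 3 rose (CYC7, YGP1 and PGM2) and none fell. On both day 2 arrays 24 (61.5%) lay above all chemostat arrays and none below, against 24.2% and 10.6% of all genes. The list's median log2 difference was 0.54, against 0.11 over all genes, and it was 0.62 for culture 1 and 0.47 for culture 2. In a list of 29 heat-shock and chaperone genes 2 rose, HSP30 and HSP42, and none fell. HSP26, a small heat-shock protein, had 989.6 and 681.6 on day 2, against 244.5, 331.1 and 205.0 in the chemostat, a log2 difference of 1.69 ± 0.28 that did not pass (adjusted p = 0.057). Non-overlapping signals were seen for 17 genes of that heat-shock list above (58.6%) and 1 below, against 24.2% and 10.6% of all genes. The median of that list was 0.49. In a list of 23 stationary-phase genes FMP16 and FMP33 rose and none fell, with a median of 0.40. RGI2, a protein of energy metabolism under respiratory conditions, lay in the other direction in that list, with 880.1 and 1042.0 on day 2 and 2469.4, 2714.1 and 2139.2 in the chemostat (-1.34 ± 0.22, adjusted p = 0.0566). Oxidative stress genes gave no call among 33 members. In that list, OYE3, an NADPH oxidoreductase, was at 285.1 and 193.1 on day 2 and 79.0 to 142.9 in the chemostat, whereas TSA2, a peroxiredoxin, was at 160.4 and 184.5 on day 2 and 234.9 to 344.6 in the chemostat, and neither passed.

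Reserve carbohydrate genes were led by PGM2, the main phosphoglucomutase, which converts glucose 6-phosphate to glucose 1-phosphate on the way to glycogen and trehalose. PGM2 had 1004.0 and 892.6 on day 2, against 290.3, 326.5 and 394.3 in the chemostat, and rose 2.83-fold (1.50 ± 0.22). PGM1, the minor enzyme for the same step, had 155.3 and 128.2 on day 2 and 307.5, 332.9 and 264.4 in the chemostat. This isoform thus lay lower on both day 2 arrays by -1.09 ± 0.22, without passing (adjusted p = 0.0907). GDB1, the glycogen debranching enzyme, had 1454.9 and 1053.1 on day 2 and 506.0, 688.0 and 476.1 in the chemostat (1.17 ± 0.25, adjusted p = 0.111). Of 17 glycogen genes, PGM2 rose and none fell, with a median of 0.44. Signals of 10 (58.8%) lay above all chemostat arrays and of 1, PGM1, below, against 24.2% and 10.6% of all genes.

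No trehalose gene passed. All 7 had differences above 0, as did 61.57% of all genes, and 5 of the 7 exceeded the median of all genes at 0.11. Without overlap, 5 (71.4%) lay above all chemostat arrays, against 24.2% of all genes. TPS2, the trehalose-phosphate phosphatase, had 666.0 and 567.2 on day 2, against 439.3, 302.8 and 301.1 in the chemostat (0.85 ± 0.24). TPS1, the synthase, had 1214.8 and 1071.2 on day 2 and 746.0, 1020.9 and 605.7 in the chemostat. The regulatory subunit TSL1 and the neutral trehalases NTH1 and NTH2 also lay above all chemostat arrays, at log2 differences of 0.56, 0.67 and 0.40. The regulatory subunit TPS3 and the acid trehalase ATH1 overlapped between the groups, both at 0.04.

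Genes for the use of C2 and C3 compounds moved in both directions. MLS1, the malate synthase of the glyoxylate cycle, had 72.1 and 89.2 on day 2, against 26.9, 28 and 26.4 in the chemostat, and rose 2.96-fold (1.57 ± 0.21). PCK1, phosphoenolpyruvate carboxykinase, which starts gluconeogenesis, rose 2.64-fold (1.40 ± 0.21), with 2374.0 and 1973.9 on day 2 against 848.2, 857.3 and 760.9 in the chemostat. Both genes are repressed by glucose. FBP1, fructose 1,6-bisphosphatase, the next control point of gluconeogenesis, was far weaker on its probe set, with 60.2 and 38.8 on day 2 and 28.2, 26.1 and 23.5 in the chemostat, and did not pass (0.90 ± 0.25, adjusted p = 0.15). Of 19 gluconeogenesis genes PCK1 rose and none fell (median 0.24), and of 26 genes of the TCA and glyoxylate cycles MLS1 rose and none fell (median 0.22).

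ALD6, the cytosolic aldehyde dehydrogenase that makes acetate from acetaldehyde, had the lowest difference of the 4 genes that fell. Its signals were 723.5 and 974.2 on day 2, against 3108.4, 2353.7 and 2901.8 in the chemostat, 3.30-fold lower (-1.72 ± 0.24). These values are from the stronger of its 2 probe sets, and the other lay under the floor of 12 on all 5 arrays. With both averaged, the difference was -0.86 and did not pass (adjusted p = 0.129). ALD4, the mitochondrial enzyme, had 2312.7 and 1408.8 on day 2 and 3550.0, 5409.8 and 4621.2 in the chemostat (-1.31 ± 0.29, adjusted p = 0.111). ATO2, a putative ammonium and acetate transporter, had 1146.6 and 963.7 on day 2 and 1680.1 to 1987.5 in the chemostat (-0.80 ± 0.21). Each of the 3 lay below all chemostat arrays, and ALD6 alone passed. Over 26 genes of acetaldehyde and acetate metabolism the median was 0.03. Without overlap, 4 genes (15.4%) lay above and 6 (23.1%) below, against 24.2% and 10.6% of all genes.

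Glycolysis and ethanol fermentation gave no call among 25 genes, and the median was -0.08 (0.07 under quantile scaling). Of these genes, 4 (16.0%) lay above and 8 (32%) below without overlap, against 24.2% and 10.6% of all genes. HXK2, the main hexokinase, which also takes part in glucose repression, had 1056.6 and 891.7 on day 2, against 2763.1, 1816.1 and 1875.7 in the chemostat (-1.12 ± 0.25, adjusted p = 0.112). FBA1, the aldolase, had 4272.4 and 5370.4 on day 2 and 8219.0 to 9067.1 in the chemostat. PYK2, the minor pyruvate kinase, which is repressed by glucose, lay in the other direction with 550.1 and 358.4 on day 2 and 137.1, 216.7 and 199.2 in the chemostat (1.30 ± 0.29, adjusted p = 0.111). None of the 3 passed, and in each the groups did not overlap. Among 16 hexose transporters and sensors none passed. HXT5, a transporter known to be made at low growth rates, was at 355.0 and 239.7 on day 2 and 137.8 to 157.3 in the chemostat (0.97 ± 0.24). In the pentose phosphate pathway, none of 14 genes passed, and TKL2, the minor transketolase, had 18.5 and 34.2 on day 2 against 12.3 to 13.5 in the chemostat. Glycerol metabolism gave no call among 14 genes, with 4 (28.6%) above and none below without overlap, against 24.2% and 10.6% of all genes. The glycerol phosphatase gene GPP2 led that list at 0.53 ± 0.22.

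**Figure D3:**
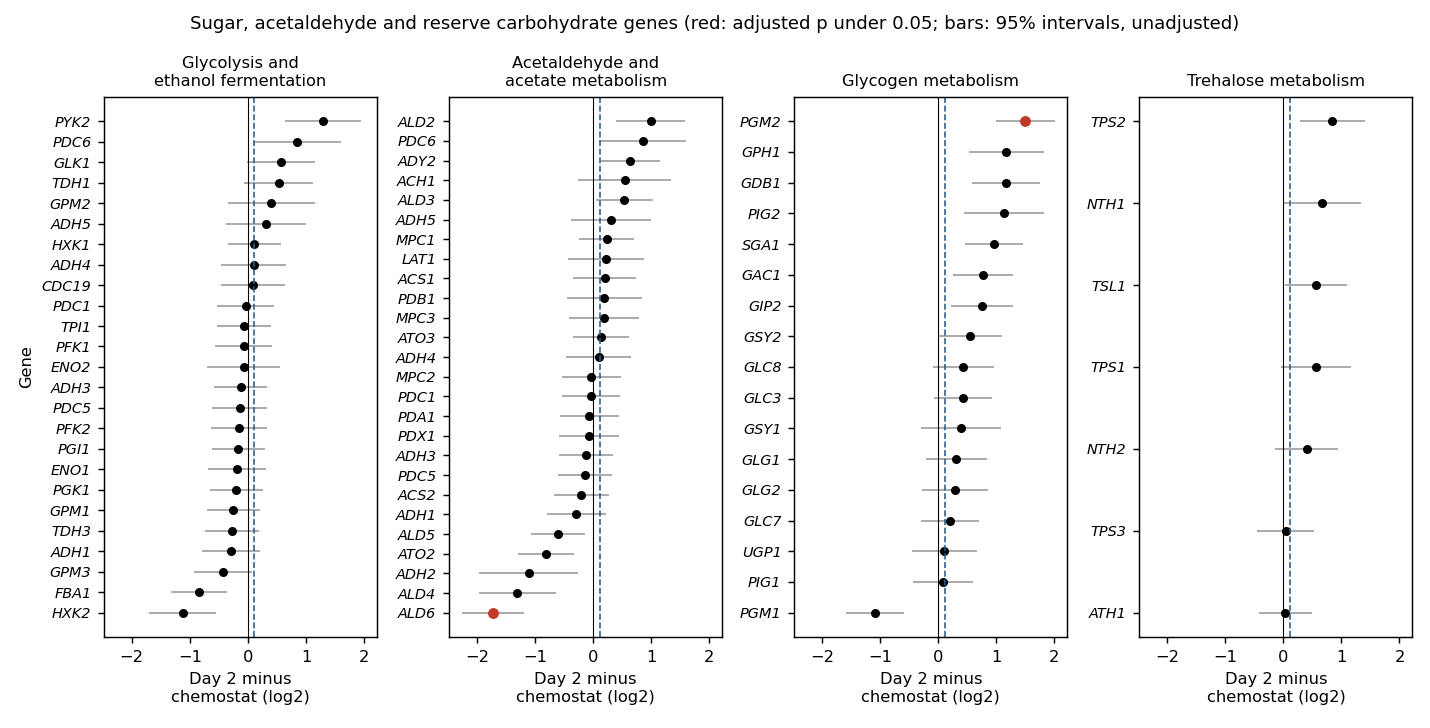
Log2 difference, day 2 minus chemostat, of each measured gene in 4 lists of carbon metabolism; points are fitted differences, horizontal lines their unadjusted 95% intervals, red points passed the adjusted threshold, and the dashed line is the median of all genes at 0.11. PGM2 at 1.50 and ALD6 at -1.72 are the 2 red points, the trehalose genes lie between 0.04 and 0.85, and glycolytic genes lie on both sides of 0.

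Oxygen was absent from all cultures, and transcripts of the respiratory chain were nevertheless measured throughout. CYC7, the isoform of cytochrome c that yeast makes under hypoxia and stress, had 348.8 and 395.0 on day 2, against 139.9, 105.5 and 84.5 in the chemostat. It rose 3.45-fold (1.79 ± 0.26). CYC1, the aerobic isoform, had 2086.5 and 1491.6 on day 2 and 599.1, 946.4 and 876.7 in the chemostat, so both isoforms lay above all chemostat arrays, but CYC1 did not pass (1.16 ± 0.27, adjusted p = 0.125). Of 44 nuclear genes for the respiratory chain and ATP synthase, CYC7 rose, none fell, and the median was 0.44. In this list 31 genes (70.5%) lay above all chemostat arrays and 1 (2.27%) below, against 24.2% and 10.6% of all genes. ATP19, a subunit of the ATP synthase, was at 1688.9 and 1799.0 on day 2 and 528.9 to 953.4 in the chemostat (1.28 ± 0.27). COX1, the cytochrome oxidase subunit encoded in mitochondrial DNA, lay in the other direction from the nuclear genes, with 2054.7 and 1423.6 on day 2 and 4208.2, 4469.8 and 4524.4 in the chemostat (-1.36 ± 0.23, adjusted p = 0.058). The difference of COX1 was -0.64 when its 3 probe sets were averaged, of which the other 2 overlapped between the groups. Its lower day 2 signal was on the array of culture 2, which had the higher ACT1 3'/5' ratio. On days 9, 16 and 20 the COX1 signal was 6808.6, 6002.4 and 3804.3 in culture 1. In culture 2 it was 2090.9, 2355.7 and 4729.1, and the part of RNA quality in these values was not tested. Mitochondrial ribosomal proteins gave no call among 67 genes, with a median of 0.24. Of these, 27 (40.3%) lay above and 2 below without overlap, against 24.2% and 10.6% of all genes. RSM27, a protein of the small mitochondrial subunit, had 130.6 and 133.5 on day 2 and 59.7, 68.2 and 62.1 in the chemostat (1.06 ± 0.20, adjusted p = 0.0788). A list of 29 hypoxic genes held CYC7 as its single call, a median of 0.16, and 7 genes above (24.1%) and 3 below (10.3%) without overlap, close to the 24.2% and 10.6% of all genes. ROX1, the heme-dependent repressor of hypoxic genes, had 83.2 and 65.8 on day 2 and 33.7 to 54.2 in the chemostat.

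Anaerobic cell-wall mannoproteins lay lower on day 2 as a group. PAU23, a seripauperin, had 944.6 and 911.0 on day 2, against 3412.3, 2386.3 and 2848.1 in the chemostat, and fell, being 3.07-fold lower (-1.62 ± 0.23). Its probe set is marked as shared within the gene family, so the signal cannot be given to this member alone. PAU15 (-1.22 ± 0.22) had 207.6 and 256.4 on day 2 and 475.2 to 577.9 in the chemostat and did not pass (adjusted p = 0.0674). All 17 measured PAU, DAN and TIR genes had differences below 0. Of them, 14 (82.4%) lay below all chemostat arrays, against 10.6% of all genes. Their median was -0.68, with -0.57 in culture 1 and -0.74 in culture 2. These genes share sequence and are not independent. PIR3, a wall protein with internal repeats that is made around the M/G1 boundary, moved the other way with 928.1 and 789.1 on day 2, against 236.5, 242.0 and 308.4 in the chemostat. It rose 3.29-fold (1.72 ± 0.22). The related HSP150 had 1649.1 and 1460.6 on day 2 and 773.7 to 930.9 in the chemostat (0.86 ± 0.21) and did not pass. SFG1, a putative transcription factor of pseudohyphal growth, was at 81.2 and 91.4 on day 2 and 130.9, 165.8 and 254.9 in the chemostat. In the M/G1 and daughter separation list of 23 genes, PIR3 was the only gene past the threshold.

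Lipid transport and lipid turnover held both directions. OSH6 and HES1 encode members of the Osh family of lipid-transfer proteins, and both fell. OSH6 had 32.7 and 43.0 on day 2, against 116.9, 93.8 and 117.0 in the chemostat (2.90-fold lower, -1.53 ± 0.23). HES1 had 90.0 and 83.7 on day 2, against 221.0, 205.7 and 222.2 in the chemostat (2.49-fold lower, -1.32 ± 0.20), with little spread within either group. GIT1, the permease that takes up glycerophosphoinositol and glycerophosphocholine, products of phospholipid breakdown, rose 3.23-fold (1.69 ± 0.24). Its signals were 304.4 and 331.8 on day 2 and 91.7, 124.0 and 84.0 in the chemostat. PLB2, a phospholipase B, had 590.8 and 545.3 on day 2 and 1255.7, 1355.7 and 1317.0 in the chemostat (-1.21 ± 0.20, adjusted p = 0.057). ELO3, an elongase of very long fatty acids, was at 646.1 and 860.5 on day 2 and 1529.0 to 1602.6 in the chemostat. Neither passed. In the 34 genes of fatty acid and phospholipid synthesis GIT1 rose, none fell, and the median was 0.07. The 29 ergosterol genes gave no call and a median of -0.09. Without overlap, 2 (6.9%) lay above and 5 (17.2%) below, against 24.2% and 10.6% of all genes. ERG2, the sterol isomerase, had 5133.1 and 4588.8 on day 2 and 6963.7 to 7930.3 in the chemostat.

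**Figure D4:**
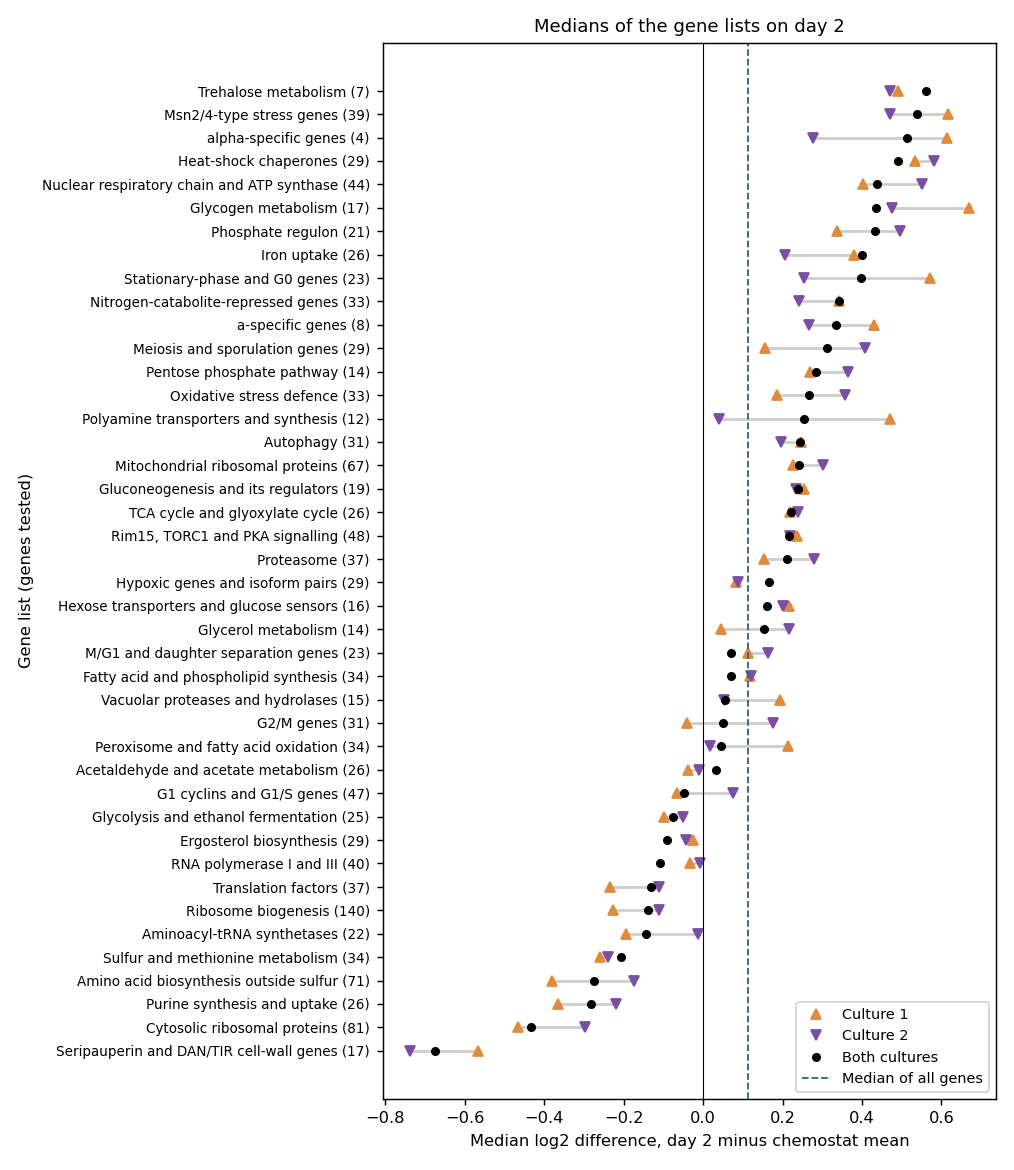
Median log2 difference, day 2 minus chemostat, of each of 42 gene lists with the values for retentostat culture 1 and culture 2 against the chemostat mean; the dashed line is the median of all genes. The trehalose, alpha-specific, Msn2/4-type stress and heat-shock lists lie between 0.49 and 0.56, and the PAU, DAN and TIR list and the cytosolic ribosomal proteins lie lowest at -0.68 and -0.43.

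Transcripts for protein synthesis and for building blocks lay lower, without any single call. Of 81 cytosolic ribosomal protein genes, 49 (60.5%) were below all chemostat arrays on both day 2 arrays, against 10.6% of all genes. Above them was 1 gene (1.23%), against 24.2% of all genes, and the median was -0.43. RPS14B, a protein of the small subunit, had 538.1 and 504.1 on day 2 and 971.3, 1091.3 and 1059.0 in the chemostat (-1.00 ± 0.20, adjusted p = 0.0907). RPL36A, of the large subunit, had 3653.4 and 2821.2 on day 2 and 5928.8, 6701.7 and 7012.0 in the chemostat. RPL7B stood lowest of all genes tested at -2.33 ± 0.37 (adjusted p = 0.0566), with 297.0 and 112.2 on day 2 and 870.2, 988.5 and 892.3 in the chemostat. A second RPL7B probe set overlapped between the groups, with 50.2 and 51.6 on day 2 and 22.2, 73.0 and 103.5 in the chemostat, and the average of both gave -1.22 (adjusted p = 0.179). On days 9, 16 and 20 its signal was 25.1, 48.6 and 100 on the culture 2 arrays, where the ACT1 3'/5' ratio was 26.99, 217.2 and 31.79, and 321.7, 522.6 and 265.3 on the culture 1 arrays, where the ratio was at most 2.025. On day 2 the array of culture 2 likewise had the lower RPL7B signal and the higher ACT1 ratio, and the part of RNA quality in this value was not tested. Ribosome biogenesis factors were nearer to the median of all genes, with a median of -0.14. Of 140 such genes, 29 (20.7%) lay below without overlap and 11 (7.86%) above, against 10.6% and 24.2% of all genes. Among them RRP14, a nucleolar assembly factor, had 122.0 and 188.5 on day 2 and 249.5 to 318.1 in the chemostat. RNA polymerases I and III (40 genes, median -0.11), translation factors (37 genes, -0.13) and aminoacyl-tRNA synthetases (22 genes, -0.14) also gave no call.

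Amino acid biosynthesis outside the sulfur pathway had no call among 71 genes and a median of -0.27. Below without overlap were 28 of them (39.4%) and above 4 (5.63%), against 10.6% and 24.2% of all genes. SER2, the phosphoserine phosphatase, had 140.0 and 190.2 on day 2 and 409.2, 367.4 and 417.5 in the chemostat (-1.28 ± 0.22, adjusted p = 0.0591). HIS3, an enzyme of histidine synthesis, had 261.8 and 272.2 on day 2 and 489.4 to 680.0 in the chemostat. Sulfur and methionine metabolism gave no call and a median of -0.21. Of its 34 genes, 10 (29.4%) lay below and 2 above, against 10.6% and 24.2% of all genes. MET14, the kinase of adenylylsulfate, was at 480.0 and 637.1 on day 2 and 1011.9 to 1218.9 in the chemostat. In purine synthesis, 11 of 26 genes (42.3%) lay below and none above, against 10.6% and 24.2% of all genes, and the median was -0.28. ADE17, which carries out the last steps to IMP, had 858.6 and 1073.5 on day 2, against 2310.4, 2196.5 and 2046.0 in the chemostat (-1.18 ± 0.21, adjusted p = 0.0674). ADE4, the enzyme of the committed step, had 51.3 and 54.0 on day 2 and 103.8 to 110.8 in the chemostat. None of these named genes passed.

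Genes for nutrient uptake and scavenging gave few calls. In the phosphate regulon 10 of 21 genes (47.6%) lay above and none below without overlap, against 24.2% and 10.6% of all genes. The median was 0.43, and GIT1 was the gene that rose. PHO89, a sodium-phosphate cotransporter, had 483.9 and 263.5 on day 2 and 135.1 to 251.1 in the chemostat. Nitrogen-catabolite-repressed genes had no call and a median of 0.34. Of 33 genes, 14 (42.4%) lay above and 4 (12.1%) below, against 24.2% and 10.6% of all genes. PUT2, an enzyme of proline use, had 315.2 and 467.3 on day 2 and 171.5 to 197.2 in the chemostat (1.04 ± 0.24, adjusted p = 0.114). DAL2, an allantoin-degrading enzyme, was at 197.8 and 133.8 on day 2 and 54.1 to 92.0 in the chemostat. Iron uptake gave 7 of 26 genes (26.9%) above without overlap, near the 24.2% of all genes, and none below, with a median of 0.40 and no call. In that list FTH1, a vacuolar iron transporter, had 754.6 and 663.3 on day 2 and 345.3 to 477.4 in the chemostat. Of 12 polyamine genes none passed. Their leading member was TPO4, an exporter, with 581.4 and 505.9 on day 2 and 234.3 to 317.2 in the chemostat (0.97 ± 0.22, adjusted p = 0.114), while the spermidine synthase gene SPE3 lay lower, with 39.6 and 114.6 on day 2 and 134.8 to 161.1 in the chemostat.

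Protein and organelle turnover was likewise without a call. Autophagy had 11 of 31 genes (35.5%) above and none below without overlap, against 24.2% and 10.6% of all genes. Its median was 0.24. ATG32, the receptor for the removal of mitochondria, had 133.2 and 88.0 on day 2 and 57.9, 48.2 and 37.9 in the chemostat (1.19 ± 0.27, adjusted p = 0.114). ATG1, the kinase that starts autophagy, had 132.5 and 135.8 on day 2 and 71.9 to 79.0 in the chemostat. The proteasome list had 13 of 37 genes (35.1%) above and 1 below, against 24.2% and 10.6% of all genes, with a median of 0.21. RPN4, the transcription factor of proteasome genes, had 757.1 and 1122.2 on day 2 and 453.7, 456.4 and 387.9 in the chemostat (1.10 ± 0.24, adjusted p = 0.111). Vacuolar hydrolases (15 genes, median 0.05) and peroxisomal genes (34 genes, median 0.04) lay near the median of all genes. PEX15, a peroxisomal membrane protein, had 115.4 and 104.7 on day 2 and 47.3 to 58.1 in the chemostat (1.05 ± 0.21, adjusted p = 0.0898), and YAT1, a carnitine acetyltransferase, had 795.1 and 354.3 on day 2 and 182.5 to 257.2 in the chemostat.

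The G2/M list had a median near that of all genes, and the median of the G1/S list lay below it. RNR3, an inducible large subunit of ribonucleotide reductase, which makes precursors of DNA, had 364.7 and 506.8 on day 2, against 151.9, 113.1 and 123.9 in the chemostat, and rose 3.34-fold (1.74 ± 0.24). The name of its probe set marks it as matching more than 1 transcript. Of 47 genes of the G1 cyclins and the G1/S list RNR3 was the single call, and the median was -0.05. Without overlap, 6 genes (12.8%) lay above and 6 (12.8%) below, against 24.2% and 10.6% of all genes. SWI4, the DNA-binding subunit of the G1/S factor SBF, had 78.1 and 75.1 on day 2 and 42.3 to 49.3 in the chemostat, and CDC45, a replication factor, had 103.0 and 138.6 on day 2 and 154.4 to 188.7 in the chemostat. Neither passed. The 31 G2/M genes gave no call and a median of 0.05.

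GIP1, a subunit that directs protein phosphatase 1 during spore formation, rose 3.41-fold (1.77 ± 0.27, adjusted p = 0.04805). Its signals were 96.3 and 97.0 on day 2 and 22.1, 39.2 and 26.2 in the chemostat. A list of meiosis and sporulation genes, which does not hold GIP1, gave no call among 29 members and a median of 0.31. In that list 11 (37.9%) lay above and none below without overlap, against 24.2% and 10.6% of all genes. RIM4, an RNA-binding protein of meiosis, led it with 98.5 and 59.2 on day 2 and 30.1, 27.9 and 31.4 in the chemostat (1.36 ± 0.26, adjusted p = 0.0788). IME1, the master inducer of meiosis, had 103.5 and 98.5 on day 2 and 48.0, 89.5 and 85.6 in the chemostat. Of 8 a-specific genes none passed, and the largest difference was that of ASG7 (0.94 ± 0.29). Among the 8, 6 (75.0%) lay above all chemostat arrays, against 24.2% of all genes. STE2, the receptor for alpha-factor, had 1037.3 and 896.0 on day 2 and 556.6 to 701.9 in the chemostat. Of 4 alpha-specific genes none passed. STE3, the receptor for a-factor, had 134.4 and 125.9 on day 2 and 65.3 to 97.0 in the chemostat.

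In the signalling genes around Rim15, TORC1 and protein kinase A, none of 48 members passed, and the median was 0.22. Of these members, 19 (39.6%) lay above and 3 (6.25%) below without overlap, against 24.2% and 10.6% of all genes. RAS1, a GTPase that activates adenylate cyclase, had 98.8 and 130.3 on day 2, against 221.2, 206.6 and 212.8 in the chemostat (-0.91 ± 0.21, adjusted p = 0.124). PDE1, the phosphodiesterase that breaks down cyclic AMP, was at 454.7 and 321.1 on day 2 and 194.3 to 241.2 in the chemostat (0.79 ± 0.24). LST8, a subunit of both TOR complexes, was at 930.7 and 683.4 on day 2 and 438.3 to 507.6 in the chemostat.

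The largest log2 difference past the threshold belonged to YER084W, an uncharacterised gene, with 73.4 and 44.7 on day 2, against 14.1, 15.3 and 10.6 in the chemostat (2.06 ± 0.26). Because 1 chemostat array lay under the floor, the size depends on the floor, and it was 0.93 with a floor of 30. AMF1 completes the 19 genes and was named after its values were seen. This transporter gene, to which ammonium transport is assigned, had 34.2 and 29.5 on day 2 and 8.7, 13.2 and 9.5 in the chemostat (1.36 ± 0.20), and its difference was 0.09 with a floor of 30. Together 14 of the 19 genes stood in at least 1 of the 42 lists and 5 in none. AIM20, the remaining gene among those with the smallest p below the chemostat, had 42.6 and 62.6 on day 2 and 124.0, 138.5 and 147.3 in the chemostat (-1.40 ± 0.24, adjusted p = 0.058).

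The later retentostat arrays place the day 2 levels within the time course. They use the same 2 cultures and the same chemostat arrays, and the 3 late arrays of culture 2 have the high ACT1 ratios given above, so the levels are set side by side without a test. HSP30 was at 99.0 to 159.0 in the chemostat, at 390.2 and 419.8 on day 2, and at 1552.5 to 2206.2 on the 6 arrays of days 9, 16 and 20. FMP16 was at 39.5 to 54.2 in the chemostat, at 183.1 and 172.8 on day 2, and at 142.1 to 408.8 later. The day 2 levels of FMP16 were thus already within the later range, while those of HSP30 were below it. MLS1 was at 26.4 to 28 in the chemostat, at 72.1 and 89.2 on day 2, and at 96.3 to 252.7 later. ALD6 was at 2353.7 to 3108.4 in the chemostat, at 723.5 and 974.2 on day 2, and at 311.2 to 601.1 later. HSP42, with 1063.8 and 933.5 on day 2 and 866.9 to 1161.4 later, and PGM2, with 1004.0 and 892.6 on day 2 and 884.6 to 1842.0 later, already had their later levels on day 2. HES1 was at 205.7 to 222.2 in the chemostat, at 90.0 and 83.7 on day 2 and at 30.0 to 53.4 later, so its day 2 level lay between both.

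**Figure D5:**
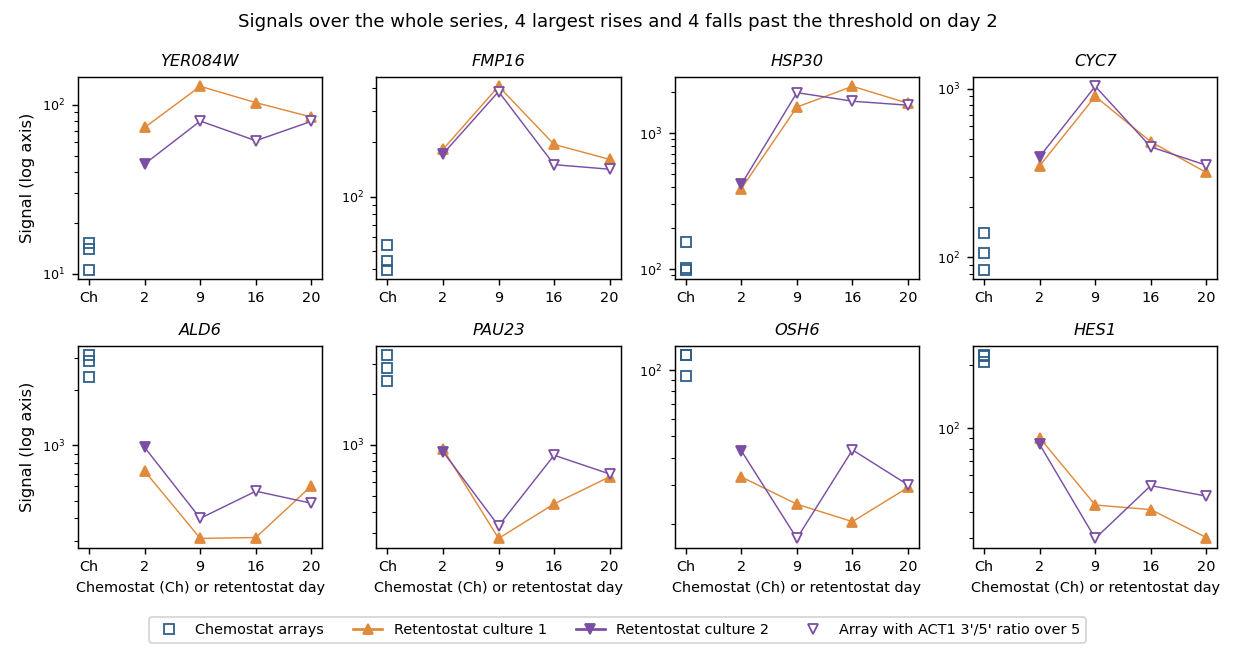
Deposited signal (log axis) of the 4 largest rises and the 4 falls past the threshold on day 2, on the chemostat arrays (squares) and on days 2, 9, 16 and 20 of retentostat culture 1 (upward triangles) and culture 2 (downward triangles); open triangles are arrays with an ACT1 3'/5' ratio over 5. The HSP30 signals of days 9, 16 and 20 lie between 1552.5 and 2206.2, above the day 2 signals of 390.2 and 419.8, and those of FMP16 between 142.1 and 408.8 enclose its day 2 signals.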

How the data were processed

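Per the labels, cells were quenched in liquid nitrogen, total RNA was extracted with hot phenol, and biotin-labelled cRNA was hybridised to 1 array per sample. Per the submitters' processing notes the authors used GCOS 1.2, and the deposited values are probe-set intensity signals on a linear scale; no other settings are stated. Here signals under 12 were set to 12, log2 was taken, and the probe set with the highest mean was used per gene. Gene names are those of GEO's platform annotation, updated through a RefSeq gene table, in which all 6504 probe sets of 1 gene matched. The 5 arrays were fitted with lmFit and eBayes of limma 3.58.1 (R 4.3.3), with 3 residual and 5.21 prior degrees of freedom; p-values measure the spread between these cultures, and the number of arrays limits precision. The code was tested on simulated data. The genes named were the 12 strongest differences past the threshold per direction (signal of at least 50, no overlap), filled by the smallest p where fewer passed, up to 3 leading members per list, members of lists of at most 12 genes, and controls. The comparison, the 42 gene lists and the rules were chosen with earlier results of these data known. Replicate numbers do not pair the groups, since the culture codes differ. A motif search in promoters was not run.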

Additional observations from a re-analysis of the deposited data

Results flagged for a closer look

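Outside the genes compared, probe set 3982_at, annotated to no gene, had a mean signal of 6955 on the day 2 arrays (7603.5 and 6306.0), against 0.5, 0.6 and 0.5 on the chemostat arrays, at least 577-fold over the floor of 12. It drew attention as a strong signal in data that the comparison of genes does not use. In a limma fit over all probe sets that are not controls its adjusted p was 1.613e-05. Of 6179 probe sets of 1 gene in that fit, HAC1 5399_at alone passed, and thus none of the 19 genes did. On all 8 retentostat arrays of the series 3982_at lay between 5754.4 and 8628.4. What it detects is unstated in the annotation used, and the culture type and the cells used for it cannot be told apart here.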

How the results depend on the processing

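The count of 19 genes past the threshold was 0 in a fit over all 11 arrays, 0 under quantile scaling, 0 under median scaling, 0 with a floor of 30 and 0 without the filter on low signals. It was 38 with log2(signal + 16), 36 with a mean signal of at least 50 and 32 with an intensity trend in eBayes, and these counts shared 17, 15 and 19 genes with the 19. Averaging all probe sets of a gene gave 15 calls, all among the 19, without GIP1, HSP42, FMP33 and ALD6. Leaving out each array in turn gave 0 calls each time, with 629 to 1097 genes at an unadjusted p under 0.05. The replicate block gave 0 calls, 522 genes at an unadjusted p under 0.05 and a smallest adjusted p of 0.3002. Deviations of arrays with the same number from their group means correlated at -0.0198 and -0.203. The deviations of the 2 day 2 arrays mirror each other, so these correlations cannot decide whether the numbers pair the groups. The culture codes differ between the groups. Adding the other arrays with a low ACT1 ratio left 19 calls, because each later day then adds 1 array and no residual degree of freedom. The 19 genes kept their direction in every alternative that tested them. This was fixed in advance where arrays were left out and in fits that return the same differences, so it adds no support there. Beyond the 19, direction was followed for the genes that filled the ranking and for up to 3 leading members per list. Of all these, MF(ALPHA)2 alone reversed, with -0.0910 without day 2 replicate 1 and 0.757 without day 2 replicate 2. The other genes named were not followed across the settings. For the lists of glycolysis, acetaldehyde, glycerol, polyamine, hypoxic, lipid synthesis, G1/S, G2/M, M/G1, vacuolar and peroxisomal genes, the side of the median of all genes or of 0 depended on the setting. Signals near the floor limit FMP33, AMF1 and YER084W among the 19 genes, and others named such as TKL2 and MF(ALPHA)2.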

Other observations

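Several genes outside the 42 lists differed at least 2-fold without overlap, 67 above the chemostat and 24 below it, most without passing the threshold. They were chosen here after their values were seen and are given as values. HBT1, a protein of polarised cell shape, had 367.8 and 250.3 on day 2 and 90.7, 104.4 and 127.2 in the chemostat. IGD1, an inhibitor of the glycogen debranching enzyme, had 690.8 and 1015.8 on day 2 and 295.2, 356.2 and 291.6 in the chemostat. EDC2 and PAT1, both with roles in mRNA decapping, had 241.6 and 228.8 (EDC2) and 201.1 and 241.6 (PAT1) on day 2, against 55.8 to 108.7 (EDC2) and 86.7 to 112.9 (PAT1) in the chemostat. DTR1, a transporter of the spore wall, had 116.6 and 105.1 on day 2 and 40.4 to 49.9 in the chemostat. PDR12, a plasma-membrane exporter of weak organic acids, lay lower, with 502.3 and 359.6 on day 2 and 815.3 to 951.9 in the chemostat.

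A second probe set shared by YHL009W-B and YJL113W, 3555_s_at, had 52.0 and 66.5 on day 2 and 270.9 to 293.6 in the chemostat, and 43.7 to 121.0 over all retentostat arrays. In the gene table both loci are named only by systematic name. The HAC1 probe set 5399_at lay between 25.6 and 52.8 on all retentostat arrays, at least 3.82-fold over the floor on day 2, and HAC1 neighbours RIM15 on its chromosome in that table.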
